A study of Mus musculus with 2 samples.

Results

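Liver endothelial and sinusoidal genes were taken as 33 named genes of the 18193 that the arrays identified by at least 1 probe set naming that gene alone. They were read by 58 probe sets, and each gene was represented by its brightest set, with the others as a check. By role, 9 genes are typical of the sinusoid, 21 of vascular endothelium in general, and 3 encode ligands that endothelial cells release towards hepatocytes. The samples were the liver of a Tmprss6-/- male mouse produced by gene targeting and the liver of a control male, both 3 months old, of 129Sv/C57BL6 background and fasted overnight. The control's genotype is given only as control, and neither the deleted part of Tmprss6 nor the origin of the control within a litter is given in the sources used here. RNA came from whole liver and was measured on 1 Affymetrix array per genotype, so no difference below has a replicate check or a p-value, and each is a difference between these 2 animals.

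Liver sinusoids are lined by endothelial cells with open pores and little basement membrane, so that plasma reaches the hepatocytes. These cells clear hyaluronan, immune complexes and other waste through scavenger receptors and lectins, and they secrete the bone morphogenetic proteins that drive hepcidin production in hepatocytes. Matriptase-2, the product of Tmprss6, is a hepatocyte protease that restrains that same pathway. The endothelium of larger vessels shares the VEGF and angiopoietin receptors, the junction proteins and the ETS and SOX transcription factors with the sinusoid, but forms a closed layer.

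The arrays were first set against their labels and tissue. Tmprss6 read 88.1 in the Tmprss6-deficient liver and 1868 in the control liver, 21.2-fold lower. Whether its probes lie in the deleted part was not tested. The 8 hepatocyte markers were measured on both arrays, with Alb at 27850.5 and 29345 in Tmprss6-deficient and control liver. A signal of 17.8, the median of all probe sets, served as the floor: below it a gene was taken as not measured, and a gene above it on only 1 array has a bound, written "at least". The only error available is how far 2 probe sets of a gene differ in log2 ratio, expressed as an SD. This probe set SD was 0.44 at signals under 64, 0.35 at 64 to 256 and 0.26 at 256 to 1024. It leaves out variation between animals, and the number of arrays limits the precision.

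Of the 33 endothelial genes, 32 were measured on at least 1 array and 29 on both. In the Tmprss6-deficient liver 5 of the 32 were higher by 1.5-fold or more, 5 were lower and 22 lay within that range. Over all 12247 named genes measured, 8.86% were higher and 9.19% lower at the same size. The median log2 ratio of the endothelial genes was 0.098, against -0.0048 for all genes, and their values ran from -1.10 to 2.24. The genes that were higher were Lyve1, Plvap, Egfl7, Oit3 and Gata4, and those that were lower were Icam2, Clec4g, Cldn5, Emcn and Kdr. With the arrays scaled to a common median the split was 3 higher and 5 lower, where 7.30% and 11.1% of all genes were. Fewer endothelial cells and less RNA per cell cannot be told apart in whole liver.

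Dim genes pass a fold threshold more often than bright ones, so the counts were also read within signal ranges. From the floor to 64, 1 of 16 endothelial genes was higher and 3 were lower, where 13.8% and 13.1% of all genes in that range were. From 64 to 256, 4 of 10 were higher and 1 was lower, against 7.15% and 8.26% of all genes. From 256 to 1024, 0 of 6 were higher and 1 was lower, against 3.86% and 4.36%. Set against the probe set SD, 3 endothelial genes were higher and 3 lower by more than 2 SDs, where 5.2% and 6.51% of all genes were. The higher genes were Lyve1, Plvap and Egfl7, and the sets of Egfl7 disagreed in direction. The lower genes were Clec4g, Icam2, which has a bound, and Cldn5, at 2.05 SDs.

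**Figure D1:**
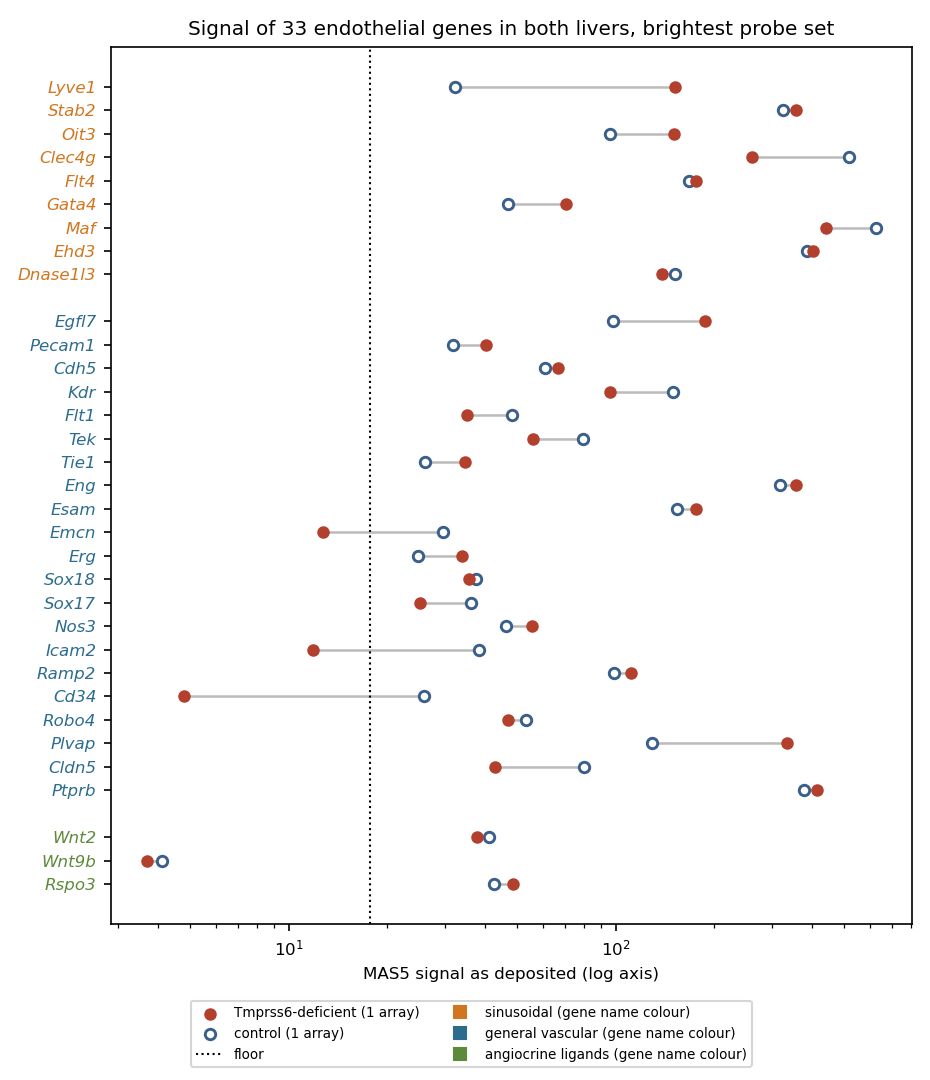
Deposited MAS5 signal (log axis) of the brightest probe set of each of the 33 genes, with filled red points for the Tmprss6-deficient array and open blue points for the control array; the dotted line is the floor of 17.8. Lyve1 and Plvap lie furthest apart among genes that were higher, Clec4g reads 261 against 517, and Emcn, Icam2 and Cd34 lie below the floor in the Tmprss6-deficient liver.

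The sinusoidal genes did not differ in a common direction. Of 9 genes, all measured on both arrays, 3 were higher by 1.5-fold or more, 1 was lower and 5 lay within that range. Over all named genes measured, 8.86% were higher and 9.19% lower at that size. The median log2 ratio of the sinusoidal genes was 0.069.

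Scavenger receptors and lectins of the sinusoid gave 3 different values. Lyve1, a receptor for hyaluronan on sinusoidal and lymphatic endothelium, read 152 in the Tmprss6-deficient liver and 32.3 in the control liver, 4.71-fold higher (log2 ratio 2.24, probe set SD 0.35). Its other probe set read 96.5 and 38.0 in Tmprss6-deficient and control liver, 2.54-fold higher. The sets thus shared a direction and differed in size. With the floor raised to the 70th percentile of signals, the control reading fell below it and the brightest set gave at least 2.88-fold. That bound was the smallest value among the 10 other ways of processing that were tried. Stab2, which encodes stabilin-2, the main scavenger receptor by which the sinusoid removes hyaluronan from blood, read 357 in the Tmprss6-deficient liver and 324.5 in the control liver, 1.10-fold higher. That difference was smaller than the probe set spread. Clec4g encodes LSECtin, a lectin of sinusoidal endothelium that binds glycoproteins. It read 261 in the Tmprss6-deficient liver and 517 in the control liver, 1.98-fold lower (log2 ratio -0.99, probe set SD 0.26), and its other set was below the floor on both arrays.

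The 250 bases before the annotated start of Clec4g and Stab2 are shown because Clec4g was lower and Stab2 lay within 1.5-fold. Sequences are from RefSeq, build GRCm38.p6, and run 5′ to 3′ on the gene's strand, with capitals marking AGGAAG or CGGAAG on either strand, short cores bound by ETS factors such as ERG.
Clec4g (chr8:3720652-3720901, minus strand): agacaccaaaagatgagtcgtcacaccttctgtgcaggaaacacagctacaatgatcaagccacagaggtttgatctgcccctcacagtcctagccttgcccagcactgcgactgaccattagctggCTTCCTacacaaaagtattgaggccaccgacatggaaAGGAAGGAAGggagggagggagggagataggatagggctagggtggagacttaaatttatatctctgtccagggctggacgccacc
Stab2 (chr10:87007943-87008192, minus strand): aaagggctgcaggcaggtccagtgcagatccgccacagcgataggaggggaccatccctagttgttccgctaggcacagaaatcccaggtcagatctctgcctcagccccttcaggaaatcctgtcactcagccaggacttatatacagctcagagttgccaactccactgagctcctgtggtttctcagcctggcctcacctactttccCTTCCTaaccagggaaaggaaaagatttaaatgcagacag
The Clec4g stretch held 3 matches, of which a pair overlap each other, and the Stab2 stretch held 1.

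Transcription factors of the sinusoid, Gata4 and Maf, differed by less than 2 probe set SDs on their brightest sets. Gata4, which directs sinusoidal over continuous endothelial identity in the mouse, read 70.7 in the Tmprss6-deficient liver and 46.9 in the control liver. It was 1.51-fold higher, just past the threshold, on the only set above the floor, by 1.33 probe set SDs. Maf, a leucine zipper factor, read 441 in the Tmprss6-deficient liver and 624 in the control liver, 1.41-fold lower on the brightest of 5 measured sets. Of the other 4 sets, 2 were lower and 2 higher, with log2 ratios from -0.67 to 0.34, so its direction depended on the set.

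Of the remaining sinusoidal genes, Oit3 alone passed 1.5-fold on its brightest set. Oit3, a secreted zona pellucida domain protein found in sinusoidal cells, read 150.4 in the Tmprss6-deficient liver and 95.9 in the control liver, 1.57-fold higher on 1 set. Flt4, the receptor for VEGF-C, read 176 in the Tmprss6-deficient liver and 168 in the control liver, while its dimmer set read 55.2 and 29.3 in Tmprss6-deficient and control liver, 1.88-fold higher. Ehd3, an ATPase of endosome traffic, was likewise close on its brighter set, at 402 in the Tmprss6-deficient liver and 386 in the control liver, and 1.48-fold higher on the other set. Dnase1l3, a secreted nuclease that digests DNA in chromatin, read 138.5 in the Tmprss6-deficient liver and 152 in the control liver, a difference within the probe set spread. The brighter set of Flt4 and of Ehd3 therefore gave the smaller ratio.

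**Figure D2:**
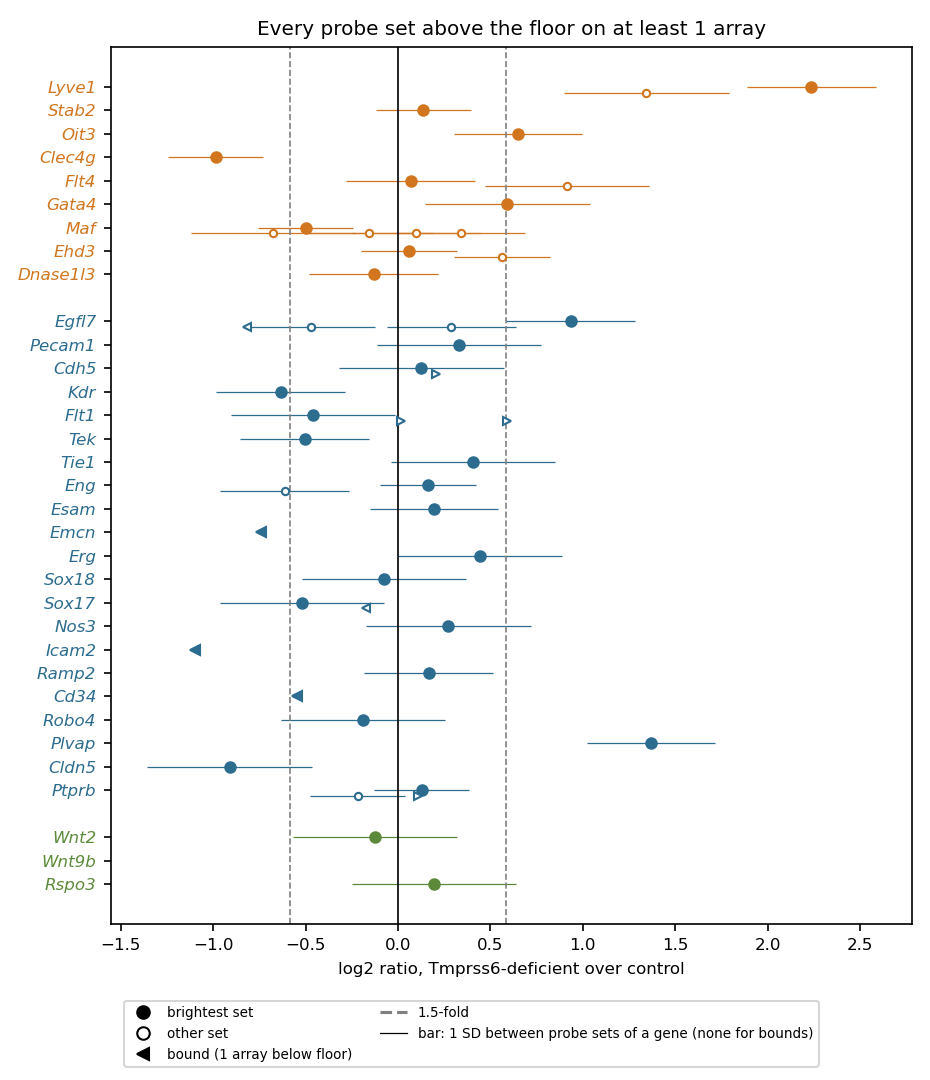
Log2 ratio, Tmprss6-deficient over control, of every probe set above the floor on at least 1 array, by gene; filled symbols are the brightest sets, open symbols the others, triangles bounds, and bars 1 SD between probe sets of a gene at that signal. Both Lyve1 sets lie right of the dashed 1.5-fold line, while the sets of Egfl7, Maf, Flt1, Eng and Ptprb fall on both sides of 0.

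General vascular genes were divided too. All 21 were measured, 18 of them on both arrays. At 1.5-fold or more, 2 were higher and 4 lower, and 15 lay within that range. The shares of all named genes measured were 8.86% higher and 9.19% lower. The general vascular genes had a median log2 ratio of 0.13, so the sinusoidal genes minus the general vascular genes gave -0.058. Taken as the mean of all probe sets, that difference was 0.33.

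Receptors and regulators of vessel growth lay mostly within 1.5-fold. Kdr, the main VEGF receptor of endothelium, read 96.3 in the Tmprss6-deficient liver and 149.5 in the control liver, 1.55-fold lower on its only set. Flt1, a VEGF receptor that acts largely as a trap, read 35.1 in the Tmprss6-deficient liver and 48.3 in the control liver, with another set, measured in the Tmprss6-deficient liver alone, at least 1.51-fold higher. Tek, the angiopoietin receptor TIE2, read 56.0 in the Tmprss6-deficient liver and 79.5 in the control liver, 1.42-fold lower. Kdr, Flt1 and Tek were thus lower on their brightest sets, by 1.04 to 1.82 probe set SDs. Tie1, the partner of TIE2, read 34.7 in the Tmprss6-deficient liver and 26.2 in the control liver. Ptprb, a phosphatase that acts on TIE2 and VE-cadherin, read 413 in the Tmprss6-deficient liver and 377.5 in the control liver, and another bright set ran the other way (344 in the Tmprss6-deficient liver, 400.5 in the control liver). Neither Tie1 nor Ptprb differed by more than the probe set SD.

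Of the other receptors in this group, none passed 1.5-fold on its brightest set. Eng encodes endoglin, a co-receptor for BMP9, and read 356.5 in the Tmprss6-deficient liver and 318.5 in the control liver, with a dimmer set 1.53-fold lower. Ramp2, part of the adrenomedullin receptor, read 111 in the Tmprss6-deficient liver and 99.1 in the control liver. Robo4, a receptor that stabilises vessels, read 46.8 in the Tmprss6-deficient liver and 53.3 in the control liver. All these brightest sets differed by less than the probe set SD.

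Junction and surface proteins held the widest values among the general vascular genes. Plvap, which forms the diaphragms of endothelial pores and caveolae, read 333 in the Tmprss6-deficient liver and 129 in the control liver. It was 2.58-fold higher (log2 ratio 1.37, probe set SD 0.35) on its only set. Cldn5, a tight junction protein of closed endothelium, read 42.7 in the Tmprss6-deficient liver and 80.3 in the control liver, 1.88-fold lower (log2 ratio -0.91, probe set SD 0.44).

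Genes of surface adhesion and the glycocalyx included 3 that read below the floor in the Tmprss6-deficient liver. Icam2, an adhesion molecule for leukocytes, read 11.9 in the Tmprss6-deficient liver and 38.1 in the control liver, at least 2.14-fold lower. Emcn encodes endomucin, a sialoglycoprotein of veins and capillaries, and read 12.7 in the Tmprss6-deficient liver and 29.7 in the control liver, at least 1.67-fold lower. Cd34, a sialomucin of continuous capillaries, read 4.80 in the Tmprss6-deficient liver and 26.0 in the control liver, at least 1.46-fold lower. With the floor as a pseudocount Cd34 too was past 1.5-fold (log2 ratio -0.95). These 3 were each measured by 1 set, in the control liver alone, at signals where the probe set SD was 0.44. Cdh5, Esam and Pecam1, of the cell junctions, were closer between the livers than Cldn5 was. Cdh5 (VE-cadherin) read 66.6 in the Tmprss6-deficient liver and 61.0 in the control liver. Esam, an adhesion molecule of endothelial junctions, read 176 in the Tmprss6-deficient liver and 154 in the control liver. Pecam1 (CD31), an adhesion molecule, read 40.1 in the Tmprss6-deficient liver and 31.9 in the control liver, and all 3 differed by less than the probe set SD.

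The stretches before the starts of Emcn and Tie1 are shown as a pair of vascular genes of which Emcn was lower and Tie1 within 1.5-fold, with the same marking.
Emcn (chr3:137340828-137341077, plus strand): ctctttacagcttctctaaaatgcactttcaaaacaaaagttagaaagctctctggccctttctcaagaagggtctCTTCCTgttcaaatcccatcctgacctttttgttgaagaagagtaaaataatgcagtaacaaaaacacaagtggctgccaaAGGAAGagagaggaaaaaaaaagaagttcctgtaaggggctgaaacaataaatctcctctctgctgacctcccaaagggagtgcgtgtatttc
Tie1 (chr4:118489850-118490099, minus strand): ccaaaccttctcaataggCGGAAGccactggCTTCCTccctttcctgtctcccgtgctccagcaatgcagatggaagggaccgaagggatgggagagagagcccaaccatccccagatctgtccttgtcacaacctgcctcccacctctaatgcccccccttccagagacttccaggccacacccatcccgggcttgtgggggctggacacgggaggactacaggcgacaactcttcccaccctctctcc
Each held 2 matches, and any relation between matches and ratios was not tested. RefSeq's table held 17 of the 33 genes with 21 starts. The ETS cores were present at 11 of the 21 starts, namely 9 of 15 general vascular, 2 of 4 sinusoidal and 0 of 2 ligand starts, against 39.2% of 32851 starts in the table. The GATA cores AGATAA and TGATAA, searched on both strands, were present at 3 of the 21 endothelial starts, against 16.6% of all starts, and the SOX cores ACAAAG and ACAATG at 5 of the 21, against 25.2%. No base was shared between matches to different families. A match describes the letters and not binding.

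The vascular transcription factors were dim and lay within 1.5-fold. Erg, an ETS factor that maintains endothelial identity, read 33.9 in the Tmprss6-deficient liver and 24.9 in the control liver. Sox18 read 35.6 in the Tmprss6-deficient liver and 37.5 in the control liver, and Sox17, a factor of arterial endothelium, read 25.2 in the Tmprss6-deficient liver and 36.1 in the control liver. Sox17 was 1.43-fold lower, and its other set, measured in the control liver alone, was at least 1.13-fold lower. Against the probe set SD of 0.44 at these signals, Sox17 differed by 1.17 SDs and Erg and Sox18 by less.

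Egfl7, a secreted protein of the vessel wall matrix, had probe sets that pointed both ways. Its brightest set read 187 in the Tmprss6-deficient liver and 98.1 in the control liver, 1.91-fold higher. The next sets read 88.7 and 123 (1.39-fold lower) and 96.8 and 79.2 (1.22-fold higher) in Tmprss6-deficient and control liver, and the dimmest was at least 1.76-fold lower. With all sets averaged the log2 ratio was -0.017, so no direction held for this gene. Nos3, endothelial nitric oxide synthase, read 55.7 in the Tmprss6-deficient liver and 46.1 in the control liver, within the probe set spread.

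Ligands released towards hepatocytes were close in both livers. Wnt2, which with Wnt9b maintains the hepatocyte programme around the central vein, read 37.7 in the Tmprss6-deficient liver and 41.1 in the control liver. Rspo3, which raises the response to Wnt, read 48.6 in the Tmprss6-deficient liver and 42.4 in the control liver. Both differed by less than the probe set SD. Wnt9b was below the floor on both arrays with both of its sets (3.70 in the Tmprss6-deficient liver and 4.10 in the control liver on the brighter), and has no ratio. Wnt targets of the pericentral zone had a median log2 ratio of -0.17 over 14 genes. Of these, 2 were at least 1.5-fold higher and 2 at least 1.5-fold lower, against 8.86% and 9.19% of all named genes measured. By more than 2 probe set SDs, 0 were higher and 3 were lower, against 5.2% and 6.51% of all genes. The 3 were Cyp1a2, Glul (glutamine synthetase, 1.45-fold, with both of its sets lower) and Oat (1.42-fold). All 3 have mean signals above 1024, where the SD was 0.16, and no share of all genes was taken for that range alone. Of the 8 hepatocyte markers, all in that range, 1 was higher and 2 were lower by more than 2 SDs. Cyp2e1, also above 1024, read 23076 in the Tmprss6-deficient liver and 22940 in the control liver. Cyp1a2 was 2.35-fold lower and Rnf43 1.64-fold lower, while Axin2, a direct target, was 1.57-fold higher and Tbx3 1.57-fold higher with its sets in disagreement, each by under 2 SDs.

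**Figure D3:**
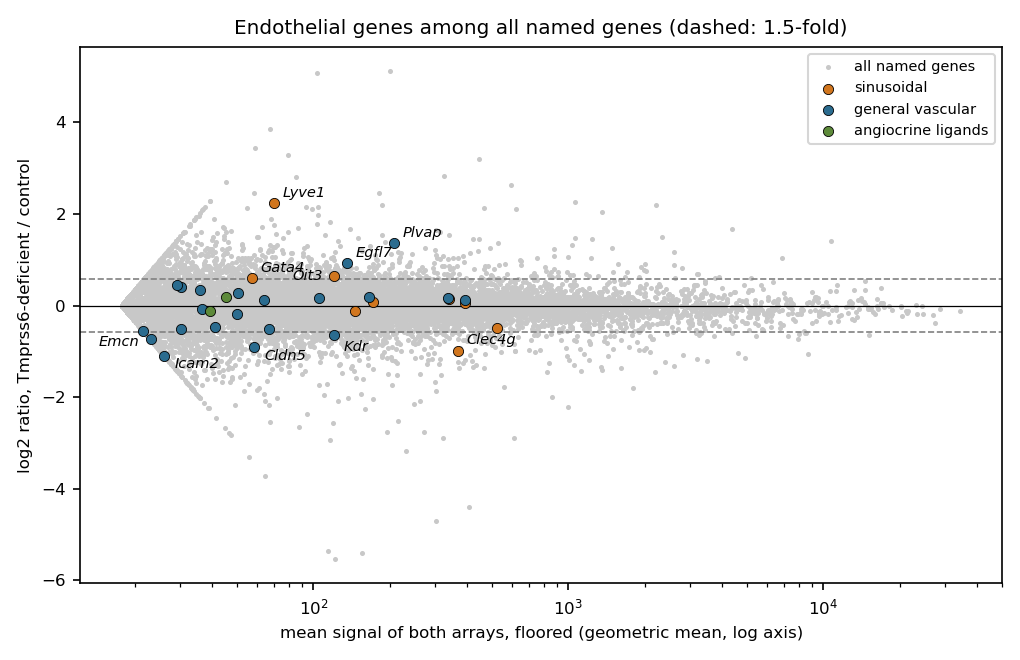
Log2 ratio, Tmprss6-deficient over control, against the geometric mean signal of both arrays (log axis) for all 12247 named genes measured (grey) and the 32 endothelial genes measured (coloured by group); genes at a bound form the slanted edges at low signal. Lyve1 at 2.24, Plvap at 1.37 and Clec4g at -0.99 lie away from most genes of like signal, and most other endothelial genes lie inside the dashed 1.5-fold lines.

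Probe sets of the same gene gave a check for 10 of the 32 genes, in 5 of which all measured sets shared a direction and in 5 of which they did not. Only Lyve1 among the 10 genes past 1.5-fold had measured sets in agreement. Egfl7 had sets in disagreement, and the other 8 rested on 1 measured set each.

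Further sinusoidal genes that were not among the 33 differed little. All 7 were measured and 0 passed 1.5-fold, with a median log2 ratio of 0.026. For this list and those below, the shares over all named genes measured are 8.86% higher and 9.19% lower. Clec1b, a C-type lectin receptor, read 135 in the Tmprss6-deficient liver and 201.5 in the control liver (log2 ratio -0.58), and Stab1, the paralog of Stab2, read 153.5 in the Tmprss6-deficient liver and 115.5 in the control liver (0.41). Bmp2, one of the endothelial ligands that induce hepcidin, read 224 in the Tmprss6-deficient liver and 269 in the control liver (-0.26). Gpr182, an atypical chemokine receptor, had a log2 ratio of 0.16.

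Genes that report blood flow and vessel activation were split. Of 10 measured, 2 passed 1.5-fold upwards and 2 downwards. Klf2, a factor that shear stress induces in endothelium, read 53.1 in the Tmprss6-deficient liver and 121 in the control liver, 2.27-fold lower on 1 set. Klf4 was 1.62-fold lower and the adhesion gene Vcam1 1.60-fold higher, each with its sets in disagreement, and Edn1 (endothelin-1) was at least 1.57-fold higher.

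Genes of closed capillaries and caveolae had a median log2 ratio of -0.23 over 8 genes, of which 2 were at least 1.5-fold lower and 0 were higher at that size. The water channel gene Aqp1 read 285 in the Tmprss6-deficient liver and 474 in the control liver, 1.66-fold lower. Cd36, a fatty acid receptor, had a log2 ratio of -0.59 with its sets in disagreement. Cav1 and Cav2, the caveolins, had log2 ratios of -0.36 and -0.27. Of the 8 genes, 6 had log2 ratios under 0 and 2 above it, Gpihbp1 (0.062) and Cd300lg (0.035).

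VEGF and angiopoietin genes, Notch genes and further endothelial transcription factors had medians near 0. Of 6 measured VEGF and angiopoietin ligands and co-receptors, 0 were higher and 1 was lower, namely Nrp1 (neuropilin-1), 1.57-fold with its sets in disagreement. Vegfb, a ligand of Flt1, had a log2 ratio of -0.35 on 1 set. Vegfd, a ligand of Flt4, had a log2 ratio of 0.34 and Vegfa, the ligand of Kdr, one of -0.28, both with their sets in disagreement. Angpt1, Angpt2 and Pgf were below the floor on both arrays. Of 9 measured Notch genes, 1 was higher, the ligand gene Dll1 at 1.76-fold, and 0 were lower. Of 8 transcription factors measured, Fli1, a close relative of Erg, was 1.79-fold higher with its sets in disagreement and Gata2 was 2.00-fold lower (18.4 in the Tmprss6-deficient liver and 36.8 in the control liver).

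Lymphatic endothelium also carries Lyve1 and Flt4. Of 4 further lymphatic genes measured, 0 were higher by 1.5-fold and 1 was lower, Mmrn1, at least 1.85-fold. Pdpn (podoplanin), used here as a lymphatic marker, read 24.4 in the Tmprss6-deficient liver and 8.90 in the control liver, at least 1.37-fold higher. Mmrn1 and Pdpn, which ran in opposite directions, were each above the floor on only 1 array. Prox1 and Reln, measured on both, had log2 ratios of -0.15 and 0.037. The part of lymphatic vessels in the Lyve1 difference was not tested.

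Markers of the other cells of the sinusoid were measured beside these genes. Among 12 Kupffer cell markers, 5 were at least 1.5-fold lower and 1 was at least 1.5-fold higher, the median log2 ratio was -0.48, and the summed signal was 3190 in the Tmprss6-deficient liver and 4386 in the control liver. Clec4f, a lectin of Kupffer cells, was 1.76-fold lower. The marker that was higher, Marco, was so by 1.76-fold, with its sets in agreement. Among 10 stellate cell and fibroblast markers, 1 was lower and 0 were higher at that size. Their median was 0.24, with summed signals of 3507 in the Tmprss6-deficient liver and 3459 in the control liver. The lower gene was Acta2, smooth muscle actin, 5.76-fold lower with its sets in disagreement. The 8 hepatocyte markers, 1 of them higher, gave a median of -0.10, with summed signals of 130633 and 140159 in Tmprss6-deficient and control liver.

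Blood and duct cells made up the other marker lists. For 4 platelet markers, 0 of them past 1.5-fold, the median log2 ratio was -0.20 and the signals summed to 112.5 and 136 in Tmprss6-deficient and control liver. For 3 erythroid markers, 2 of them lower at that size, the median was -1.35 and the summed signals were 370.1 in the Tmprss6-deficient liver and 767 in the control liver. Cholangiocyte markers, 4 genes all measured in the control liver alone and 2 of them lower at that size, summed to 35.7 in the Tmprss6-deficient liver and 118 in the control liver. That Tmprss6-deficient sum holds only signals below the floor. Neutrophil markers summed to 151 in the Tmprss6-deficient liver and 142 in the control liver over 4 genes, 2 of them higher. Lymphocyte markers summed to 51.5 and 52.8 in Tmprss6-deficient and control liver over 3 genes, with 0 past 1.5-fold. Mesothelial markers summed to 78.7 and 17.8 in Tmprss6-deficient and control liver over 3 genes, all measured in the Tmprss6-deficient liver alone and 2 of them higher. Their control sum likewise holds only signals below the floor. No marker on these lists had a signal of 0. The part of these cells in the endothelial differences was not tested.

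**Figure D4:**
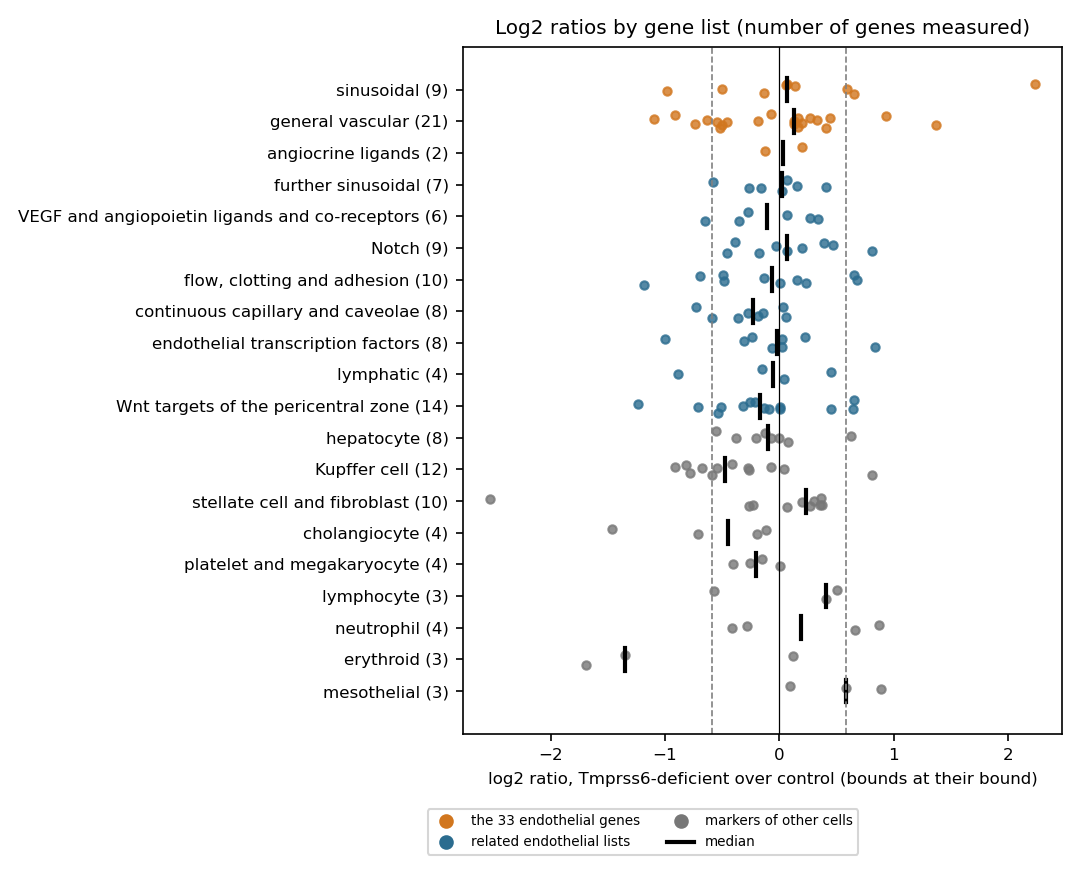
Log2 ratio, Tmprss6-deficient over control, of each measured gene by list, with the number measured in brackets, a black bar at the median and genes with a bound drawn at that bound; orange marks the 33 endothelial genes, blue related endothelial lists and grey markers of other cells. Sinusoidal and general vascular genes spread on both sides of 0 around medians of 0.069 and 0.13, and Kupffer cell markers around -0.48.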

How the data were processed

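The deposited intensity of a probe set is 1 linear signal on each array. Per the submitters' processing notes the authors used MAS5, and no version or setting is given in the sources used here. They ran from 0 to 42541, and the authors' values had the same mean on both arrays (100.0 with 2% trimmed at each end). Names came from the annotation of the platform, updated through RefSeq gene identifiers: of 45101 sets, 34958 had 1 symbol, 932 had several, and the table used here does not list 9211.

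With Python 3.11.15 and pandas 2.3.3, arrays were scaled to a common trimmed mean, signals under the floor of 17.8 were raised to it, and values were put on a log2 scale. The gene value is that of its set with the highest mean log2 signal. For the probe set SD, log2 ratios of the 2 brightest sets measured on both arrays were subtracted in each of 4367 genes, and the root mean square was divided by the square root of 2, with signal ranges set by the dimmer set. Of the 58 endothelial sets, 40 were above the floor on both arrays, 9 on 1 and 9 on neither. The steps were tested on simulated data, with changes planted only in brighter genes and noise drawn from the probe set SD. No changes were planted in dim genes, and variation between animals was not simulated.

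The endothelial genes, related lists, floor and thresholds were chosen with earlier results of these data known, and the division of vascular genes by function was made after their values were seen. All 33 genes are named. From each related list up to 4 genes with the largest log2 ratios are named. Pgf, Angpt1 and Angpt2, Glul, Oat and Cyp2e1, Alb, Clec4f and Acta2 lie outside that rule or were singled out after their values were seen. The same holds for Gpihbp1, Cd300lg and Marco. Alternatives were other scalings (median, none, quantile, loess with statsmodels 0.14.6), a floor at the 30th or the 70th percentile, adding the floor as a pseudocount, averaging all sets, plain sets only, genes measured on both arrays only and other assignments of single genes. No test was run, since each genotype has 1 array. Scanner images and detection calls were not used here.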

Additional observations from a re-analysis of the deposited data

How the results depend on the processing

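Lyve1, Plvap, Clec4g and Cldn5 stayed past 1.5-fold in the same direction in all 10 alternatives run. Icam2 did so in the 8 that gave it a value and Emcn in 7. Kdr passed in 9 of 10, Oit3 in 8 of 10, Gata4 in 5 of 10 and Egfl7 in 8 of 9. Some alternatives could not move a value, so these counts overstate the check. The arrays already shared a trimmed mean, so leaving out scaling nearly repeats the main values. Requiring both arrays leaves a gene's ratio unchanged, as does averaging sets where 1 set was measured. Lyve1 ran from at least 2.88-fold (a bound, with the floor at the 70th percentile) to 4.71-fold. The count of endothelial genes that were higher, 5, was 3 with scaling to the common median and 3 with the floor as a pseudocount. In those settings 7.30% and 8.02% of all genes were higher. The count that were lower, 5, was 3 of 21 measured when the floor was raised to the 70th percentile. It was 3 of 29 when genes had to be measured on both arrays. Icam2 and Emcn do not enter in either setting, and 6.27% and 8.42% of all genes were lower. With the floor lowered to the 30th percentile 6 were higher and 6 lower, Wnt9b and Cd34 joining, while 15.9% and 15.7% of all genes were. The mean of all probe sets turned the difference in median log2 ratio, sinusoidal minus general vascular, to 0.33. Averaging brought in dimmer sets. Among sinusoidal genes Flt4 (to 0.49), Ehd3 (0.31) and Maf (-0.18) rose and Lyve1 (1.79) fell. Among general vascular genes Egfl7 (to -0.017), Eng (-0.23) and Ptprb (0.0065) fell, and Flt1, Cdh5 and Sox17 rose. Plain probe sets only gave 0.043 for that difference. Why sets of a gene differ was not tested. Single gene values were recomputed 301 times, including by alternatives that could not change them. Of these values, 290 moved by less than the probe set SD, 10 by more, and 1, Egfl7, changed sign from past 1.5-fold. Of genes within 1.5-fold, Eng (-0.23) and Flt1 (0.049) changed sign with the mean of all sets, and Ehd3 (-0.0052) with scaling to the common median. The median of the endothelial genes stayed between 0.028 and 0.13. No paired analysis was possible because each genotype has 1 array. Signals near the floor limit Emcn, Icam2, Cd34, Erg, Tie1 and Sox17, and saturation was not assessed.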
